A study of Mus musculus with 12 samples.

Results

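The 8 interferon-inducible genes Ifitm1, Ifitm2, Ifitm3, Bst2, Isg15, Stat2, Irf1 and Irf7 were followed across sorted mouse cells on the path from blood-forming endothelium to blood progenitors. They were taken by name from 35976 gene names in the deposited tables, and all 8 were found and were among the 13316 genes tested. The cells came from A2lox.cre embryonic stem cells, a line with a docking site for a doxycycline-inducible gene, here the leukaemia fusion RUNX1-EVI1. All 6 groups carried the construct, from neomycin-selected colonies, and the labels do not give the number of clones. FLK1+ cells from embryoid bodies were grown in serum with D4T-conditioned medium, VEGF and IL-6, and the PlusDox groups received 0.5 µg/ml doxycycline for 18 hours while the NoDox groups received none. Sorting then gave 3 populations: HE1 and HE2, labelled hemogenic endothelial 1 and 2, and HP, labelled as progenitors of blood, with 2 biological replicates per group and 12 libraries in all. No group had doxycycline without the construct, so the drug and the fusion cannot be told apart.

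Interferons bind receptors that activate JAK kinases and STAT proteins. Type I interferon brings STAT2 together with IRF9 in a complex that binds the interferon-stimulated response element (ISRE), while interferon gamma acts through STAT proteins at the gamma-activated site (GAS). IRF1 and IRF7 are transcription factors of the same system, and many cells, stem cells among them, keep some of these genes on without infection. IFITM1, IFITM2 and IFITM3 are membrane proteins that restrict virus entry, and Ifitm1 and Ifitm3 are also known in embryonic and germ cells. BST2, or tetherin, holds budding virus particles at the cell surface, and ISG15 is a ubiquitin-like protein that is attached to other proteins.

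The 3 Ifitm genes lie side by side on chromosome 7 (GRCm38, the assembly also called mm10). Ifitm2 is at chr7:140954837-140959686 on the minus strand, Ifitm1 at chr7:140967429-140969827 on the plus strand and Ifitm3 at chr7:141009590-141010744 on the minus strand. Irf7 is on the same chromosome at chr7:141263183-141266499, minus strand. Bst2 is at chr8:71534255-71537472 (minus), Isg15 at chr4:156199424-156200818 (minus), Stat2 at chr10:128270498-128292853 (plus) and Irf1 at chr11:53770014-53778374 (plus). All 8 are annotated as protein coding.

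RefSeq promoter windows of the same assembly, 250 bases before to 50 after each start, were on hand for all 8 genes and were searched on both strands. Each start is that of the promoter entry. For Ifitm1, Ifitm2, Irf7 and the second entry of Irf1 it lies inside the gene span given above, which begins further upstream. The ISRE core was searched as GAAANNGAAA, which 3.44% of the 32851 windows of this length held. It was found in Isg15, Bst2, Ifitm2, Ifitm3 and Stat2, and not in the windows of Ifitm1, Irf1 and Irf7, where no match says only that these letters are absent. Isg15 and Bst2 are shown in full for the 150 bases before the start because their matches overlap in a run. Ifitm2 and Ifitm3 are shown as 30 bases with the match because their matches lie close to this start or past it. Capitals mark the ISRE matches, and each line reads 5′ to 3′ on the gene's strand.
Isg15 chr4:156200819-156200968: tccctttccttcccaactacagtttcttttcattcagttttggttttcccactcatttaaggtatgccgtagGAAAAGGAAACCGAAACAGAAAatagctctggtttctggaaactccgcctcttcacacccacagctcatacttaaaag
Bst2 chr8:71537473-71537622: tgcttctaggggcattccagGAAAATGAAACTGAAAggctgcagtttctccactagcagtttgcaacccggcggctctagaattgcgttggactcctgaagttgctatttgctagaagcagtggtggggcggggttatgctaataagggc
Ifitm2 chr7:140955988-140956017: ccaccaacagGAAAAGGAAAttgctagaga
Ifitm3 chr7:141010713-141010742: GAAAAGGAAActtctgaGAAACCGAAActg

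Isg15 held 3 overlapping matches, which began 78, 72 and 66 bases before the start. Bst2 held 2 overlapping matches, at 130 and 124 bases before the start. The single match of Ifitm2 began 46 bases before the start, and its 10 letters were the same as those of the first matches in Isg15 and Ifitm3. Ifitm3 held 2 matches just past the start, at bases 3 and 20. The match of Stat2 lay on the other strand, 222 bases before the start. The GAS core, searched as TTCNNNGAA and held by 8.3% of all windows, was found once each in Ifitm3, Bst2 and Irf1, and in Ifitm3 and Bst2 it overlapped an ISRE match. The sequence TGTGGT, a core recognised by RUNX proteins and held by 16.8% of windows, was found in Stat2 alone among the 8.

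The values were read as FPKM, sequenced fragments corrected for transcript length and library size. The sum per library ran from 468326 to 579055, and 11461 to 12174 genes reached 1 FPKM. The files gave no read counts, so absolute depth is unknown, and depth relative to the median library ran from 0.577 to 1.594. Lars2 was above 1000 FPKM in 5 libraries and below in 7. Replicate 2 was high in NoDox HP and in all PlusDox groups, and replicate 1 in NoDox HE1. Replicates correlated at 0.973 to 0.983 across genes, which are not independent replicates. Endothelial markers (9 genes) summed to 1393 to 1954 FPKM in NoDox HE1 and 132 to 149 FPKM in NoDox HP, and haematopoietic markers (9 genes) to 65.3 to 89.0 and 445 to 463 FPKM, the order that the population labels give. Mecom, the mouse gene of EVI1, which the fusion contains, was at 0.194 and 0.205 FPKM in NoDox HP and 5.18 and 5.51 FPKM in PlusDox HP. In HE2 it was at 6.08 and 13.95 FPKM in NoDox and 18.4 and 20.2 FPKM in PlusDox. But its groups overlapped in HE1, where all 4 libraries lay between 17.0 and 28.3 FPKM. No source used here says whether reads of the fusion were counted under this name.

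Ifitm1 ran from 2.09 to 113 FPKM, a ratio of 54.1 between its highest and lowest library, where the other 7 had ratios from 1.45 (Stat2) to 8.15 (Irf7). Its levels were 2.60 and 2.09 FPKM in NoDox HE1, 10.9 and 19.9 FPKM in NoDox HE2, and 48.5 and 45.0 FPKM in NoDox HP. With doxycycline they were 14.1 and 3.76 FPKM in HE1, 107 and 81.1 FPKM in HE2, and 113 and 66.0 FPKM in HP. Both PlusDox libraries were above both NoDox libraries in each population, and in HE2 the lower PlusDox library was above every NoDox library of any population. In order, the group means were 2.34 ± 0.365 in NoDox HE1, 8.95 ± 7.33 in PlusDox HE1, 15.4 ± 6.38 in NoDox HE2, 46.7 ± 2.53 in NoDox HP, 89.4 ± 33.1 in PlusDox HP and 94.3 ± 18.7 FPKM in PlusDox HE2 (SD, n = 2 each). PlusDox HE1 overlapped NoDox HE2 in this order, and the last pair overlapped too. Ifitm1 stood above 23.3% of the tested genes in NoDox HE1 and above 95.1% in PlusDox HE2.

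Ifitm2 was high in every library. It was at 106 and 111 FPKM in NoDox HE1, 166 and 144 FPKM in NoDox HE2, and 153 and 129 FPKM in NoDox HP. With doxycycline it was at 110 and 88.0 FPKM in HE1, 220 and 181 FPKM in HE2, and 213 and 168 FPKM in HP. Both HE1 groups overlapped each other and lay below the other 4 groups, which stood at 129 FPKM or more. Ifitm2 shares 48.5% of its 50-base words with other annotated genes, among them Gm45717, which overlaps it on the same strand and is not a name in the files, so its level is uncertain.

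Ifitm3 followed another order. It was at 87.8 and 116 FPKM in NoDox HE1, 72.4 and 116 FPKM in NoDox HE2, and 40.9 and 52.7 FPKM in NoDox HP. With doxycycline it was at 141 and 124 FPKM in HE1, 113 and 122 FPKM in HE2, and 67.3 and 83.9 FPKM in HP. NoDox HP was the lowest group and did not overlap any other, and PlusDox HE1 was the highest and did not overlap any other. Ifitm3 shared 10% and Ifitm1 5.02% of their 50-base words with other genes, among them the predicted gene Gm7676.

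Bst2 was likewise lowest in HP. Its levels were 21.7 and 42.8 FPKM in NoDox HE1, 22.1 and 44.8 FPKM in NoDox HE2, and 12.5 and 15.6 FPKM in NoDox HP. With doxycycline they were 36.8 and 38.1 FPKM in HE1, 24.2 and 30.7 FPKM in HE2, and 16.5 and 16.7 FPKM in HP. The 4 HP libraries lay below the other 8, and the replicates of NoDox HE1 and NoDox HE2 differed by 1.97 and 2.03 times.

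Isg15 was set apart by the spread between replicates. It was at 3.54 and 13.1 FPKM in NoDox HE1, 6.33 and 17.3 FPKM in NoDox HE2, and 10.2 and 22.7 FPKM in NoDox HP. With doxycycline it was at 10.6 and 18.5 FPKM in HE1, 6.96 and 15.6 FPKM in HE2, and 10.1 and 21.8 FPKM in HP. Every neighbouring pair of groups in the order of Isg15 means overlapped, from 8.31 ± 6.75 in NoDox HE1 to 16.4 ± 8.87 FPKM in NoDox HP (SD, n = 2 each).

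Among the transcription factors, Irf7, which amplifies interferon production, spread in the same way. It was at 1.17 and 4.98 FPKM in NoDox HE1, 1.93 and 5.52 FPKM in NoDox HE2, and 5.10 and 9.48 FPKM in NoDox HP. With doxycycline it was at 2.26 and 4.88 FPKM in HE1, 4.16 and 8.30 FPKM in HE2, and 6.08 and 9.56 FPKM in HP. All neighbouring groups overlapped for Irf7 too, with the HE1 means at the low end and the HP means at the high end. Its gene overlaps Phrf1 by 45 bases on the opposite strand, and the strand setting of the counting is not given in the sources used here.

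Irf1 and Stat2 moved within a narrow range. Irf1 was between 8.10 and 12.8 FPKM in the 6 NoDox libraries, and at 12.0 and 12.0, 13.5 and 15.3, and 12.4 and 11.2 FPKM in PlusDox HE1, HE2 and HP. Both PlusDox HE2 libraries were the highest of the 12 for Irf1. Stat2, whose protein is part of the type I complex, was at 8.58 and 10.3 FPKM in NoDox HE1, 8.76 and 10.5 FPKM in NoDox HE2, and 7.64 and 7.97 FPKM in NoDox HP. With doxycycline it was at 10.2 and 9.82 FPKM in HE1, 7.85 and 7.24 FPKM in HE2, and 8.79 and 9.27 FPKM in HP. PlusDox HE2 had the lowest Stat2 mean, 7.55 ± 0.427 FPKM, and overlapped NoDox HP, the next group.

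**Figure D1:**
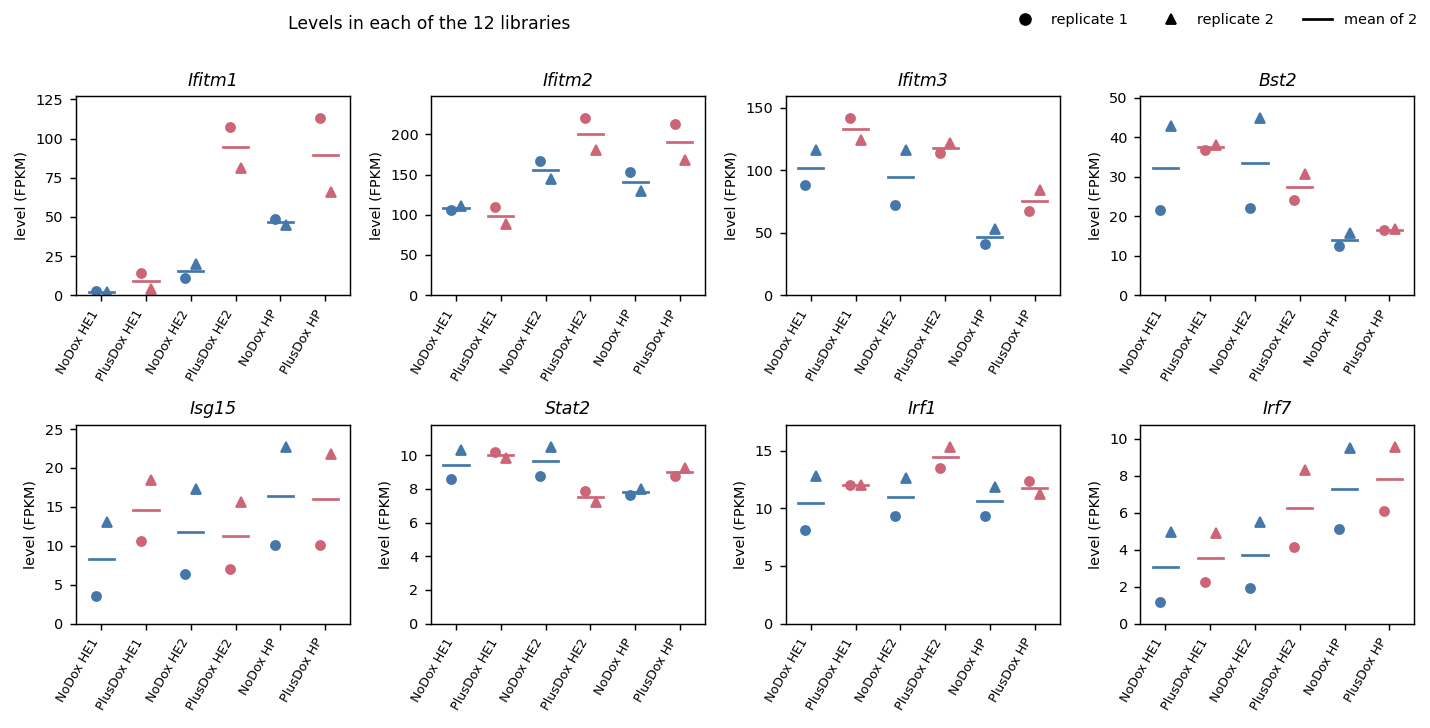
FPKM of the 8 genes (one panel each, axis from 0) in the 6 groups, with circles for replicate 1, triangles for replicate 2, bars for the mean of 2, blue for NoDox and red for PlusDox. Ifitm1 is highest in PlusDox HE2 and PlusDox HP, Ifitm3 and Bst2 are lowest in HP, and the triangle is above the circle in all 6 groups for Isg15, Irf7 and Bst2.

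Doxycycline raised 1 of the 8 genes in HE2, Ifitm1. Its log2 fold change of FPKM + 1 was 2.58 ± 0.45 (SE), from a mean of 15.4 to 94.3 FPKM, with limma's adjusted p = 0.00654 over all tested genes. In HE2 6.06% of the tested genes were called (adjusted p below 0.05), 3.82% higher and 2.24% lower. After scaling the libraries to equal sums without Lars2 and the other 2 features that vary with it, 42.5% of the HE2 calls were higher in place of 63.1%. The median log2 fold change of the 8 genes was 0.36, beside −0.05 for all tested genes. Both PlusDox HE2 libraries were above both NoDox libraries for 3 of the 8 (Ifitm1, Ifitm2 and Irf1), where 22.3% of the tested genes had this pattern, and below for 1 (Stat2), where 28% had it.

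Apart from Ifitm1, no member passed the test in HE2. Ifitm2 had a log2 fold change of 0.36 ± 0.20 (SE, adjusted p = 0.32, limma), and Irf1 of 0.37 ± 0.23 (adjusted p = 0.372). Ifitm2 passed with the equal sums (adjusted p = 0.0313), with quantile normalization (0.0113) and with the Lars2 class as a term (0.0424). Irf7 had 0.67 ± 0.52, Ifitm3 0.35 ± 0.25, Isg15 −0.01 ± 0.62, Bst2 −0.20 ± 0.33 and Stat2 −0.31 ± 0.18 (SE). The standard error of Isg15 was the widest of the 8, so that a change of 2-fold in either direction lies within 2 standard errors of its estimate.

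This Ifitm1 call did not hold without NoDox HE2 replicate 1 (log2 fold change 2.17, adjusted p = 0.0743), with no filter on low values (2.58, adjusted p = 0.0554) and in the 7 libraries low in Lars2 (2.78, adjusted p = 0.0939). Over all 19 alternatives its log2 fold change ran from 2.17 to 2.99 and it was called in 16. Markers of several cell types moved with it. Of 9 haematopoietic markers 6 had both PlusDox HE2 libraries above both NoDox libraries and 0 had them below. Over all tested genes 22.3% were above and 28% below in this way. Among the 6 were Coro1a, at 3.70 and 6.72 against 55.1 and 45.7 FPKM, and Ptprc, which encodes CD45, at 0.59 and 1.17 against 8.43 and 14.8 FPKM. The markers outside the 6 overlapped and leaned the other way. Itga2b was at 166 and 94.9 against 112 and 49.7 FPKM. Gfi1b was at 32.5 and 14.7 against 21.9 and 8.75 FPKM, and Gfi1 at 16.8 and 10.7 against 16.2 and 6.69 FPKM. The haematopoietic sum, most of which was Itga2b in NoDox HE2 replicate 1 (166 FPKM), overlapped, at 224 to 306 against 275 to 403 FPKM. Macrophage or myeloid markers (10 genes) summed to 33.8 to 41.2 FPKM in NoDox HE2 and to 68.9 to 79.8 FPKM in PlusDox HE2, and 4 of the 10 were above in this way and 1 below. C1qa was at 0 in all 4 of these libraries, and Adgre1, C1qb and Fcgr1 were below 1 FPKM. Endothelial markers also stood higher with doxycycline in HE2, at 746 to 1184 against 1544 to 1546 FPKM, with 6 of 9 above and 0 below. Megakaryocyte markers stood lower, at 218 to 229 against 108 to 145 FPKM, with 4 of 5 below and 1 above. Erythroid sums overlapped, at 1454 to 1654 against 1485 to 2164 FPKM, with 2 of 7 above and 1 below. The part of these cells in the Ifitm1 result was not tested, and in bulk libraries more cells of a type and more RNA per cell cannot be told apart.

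In HE1 no member passed with doxycycline, where limma called 1.37% of the tested genes, and 1 had an unadjusted p below 0.05, as 9.59% of the tested genes did. Both PlusDox HE1 libraries were above both NoDox libraries for 2 of the 8, Ifitm1 and Ifitm3, and below for 0, patterns that 13.6% and 22% of the tested genes had. The unadjusted p was that of Ifitm1, with a log2 fold change of 1.35 ± 0.45 (SE, adjusted p = 0.244), and its PlusDox HE1 libraries differed by 3.75 times. Without the lower of them, PlusDox HE1 replicate 2, which was also the shallowest library, Ifitm1 passed in HE1 (2.18, adjusted p = 0.0245). The others ranged from −0.14 for Ifitm2 to 0.91 for Isg15, and the median of the 8 was 0.28 beside −0.07 for all tested genes. Of 9 haematopoietic markers 5 had both PlusDox HE1 libraries above both NoDox libraries and 1 had them below. One of the 5 was Coro1a, at 0.649 and 0.894 against 3.92 and 1.61 FPKM, and another was Spn, below 1 FPKM in all 4 of these libraries. The 1 below was Itga2b, at 51.1 and 29.2 against 24.2 and 10.5 FPKM. The haematopoietic sums overlapped, at 65.3 to 89.0 against 68.2 to 106 FPKM. Of 9 endothelial markers 0 were above and 1 below, and of 10 myeloid markers 1 and 2. But 8 of the 10 myeloid markers were below 1 FPKM in all 4 of these libraries, with 4 at 0 in all 4, so they could show little. The part of these markers in the HE1 values was not tested.

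In HP again no member passed, where 0.834% of the tested genes were called, and 1 had an unadjusted p below 0.05, as 9.39% of the tested genes did. This was Ifitm3, with a log2 fold change of 0.68 ± 0.25 (SE, limma's adjusted p = 0.317), from 46.8 to 75.6 FPKM. Both PlusDox HP libraries were above both NoDox libraries for 5 of the 8, all 3 Ifitm genes, Bst2 and Stat2, where 20.5% of the tested genes had this pattern, and below for 0, where 13.2% had it. Ifitm1 had 0.87 ± 0.45 (adjusted p = 0.625) and Ifitm2 0.42 ± 0.20 (adjusted p = 0.561). The median of the 8 was 0.21, beside −0.00 for all tested genes. Endothelial markers stood higher with doxycycline in HP too, at 132 to 149 against 256 to 322 FPKM with 8 of 9 above and 0 below, as did myeloid markers, at 74.1 to 99.6 against 127 to 143 FPKM with 6 of 10 above and 0 below. Some of these stood near 0. Cldn5 and Sox17, among the 8, and Mrc1, among the 6, were below 1 FPKM in all 4 libraries, as were Emcn and C1qa, which overlapped. C1qb, also among the 6, was at 0 and 0.347 against 0.383 and 1.44 FPKM. Of 9 haematopoietic markers 6 were above and 1 below. Erythroid markers went the other way, with 0 of 7 above and 4 below. Their sums overlapped, at 10421 to 12746 against 6942 to 11259 FPKM. The part of these markers in the HP values was not tested.

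The doxycycline effects of the members were not shown to differ between populations. None of the 8 was called in the 3 differences, where limma called 0.0451% (HE2 minus HE1), 0.015% (HP minus HE2) and 0.0375% (HP minus HE1) of the tested genes. The 1 unadjusted p below 0.05 was that of Ifitm1 between HP and HE2, −1.71 ± 0.64 (SE, limma's adjusted p = 0.621), where 6.57% of the tested genes had one. Between HE2 and HE1 the Ifitm1 effects differed by 1.23 ± 0.64 (adjusted p = 0.798).

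**Figure D2:**
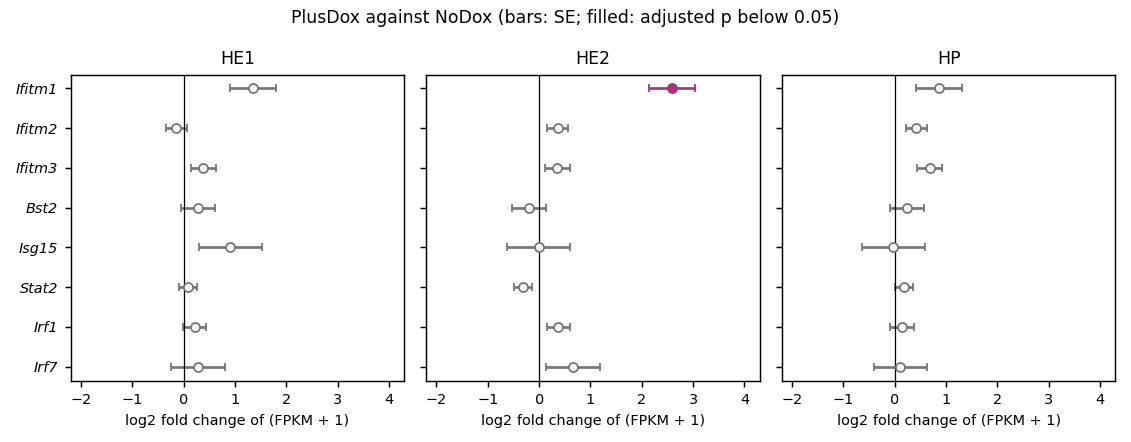
Log2 fold change of FPKM + 1, PlusDox against NoDox, for the 8 genes in HE1, HE2 and HP, with bars for the standard error and filled points for an adjusted p below 0.05. Ifitm1 in HE2 (2.58) is the one filled point.

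Between the populations the Ifitm genes parted. From NoDox HE1 to NoDox HE2 1 of the 8 was called, Ifitm1, with a log2 fold change of 2.24 ± 0.45 (SE, limma's adjusted p = 0.0101), where 10.1% of the tested genes were called. Ifitm2 did not pass, but its libraries did not overlap either (106 and 111 against 166 and 144 FPKM), and with quantile normalization 2 members were called. Ifitm1 and Ifitm2 had an unadjusted p below 0.05, as 27.9% of the tested genes did. From NoDox HE2 to NoDox HP it rose again, by 1.60 ± 0.45 (adjusted p = 0.0301), while Ifitm3 fell, −0.97 ± 0.25 (adjusted p = 0.0174), and Bst2 fell, −1.12 ± 0.33 (adjusted p = 0.0388). In that step 16% of the tested genes were called, 5.31% higher and 10.6% lower. Neighbours on chromosome 7 thus moved in opposite directions there, Ifitm1 from 15.4 to 46.7 FPKM and Ifitm3 from 94.4 to 46.8 FPKM. The fall of Ifitm3 and Bst2 went with lower summed endothelial markers, 746 to 1184 FPKM in NoDox HE2 and 132 to 149 FPKM in NoDox HP. The step before did not pair them in this way. Endothelial sums were already lower in NoDox HE2 than in NoDox HE1 (1393 to 1954 FPKM). Ifitm3 (means of 102 and 94.4 FPKM) and Bst2 (32.2 and 33.4 FPKM) overlapped between NoDox HE1 and NoDox HE2 and were not called. The rises of Ifitm1 went with higher sums of other markers over NoDox HE1, HE2 and HP. Haematopoietic markers were at 65.3 to 89.0, 224 to 306 and 445 to 463 FPKM, myeloid markers at 14.4 to 19.6, 33.8 to 41.2 and 74.1 to 99.6 FPKM, and megakaryocyte markers at 12.3 to 13.7, 218 to 229 and 368 to 385 FPKM. Erythroid markers (7 genes), mostly globins, had the largest sums, at 182 to 192, 1454 to 1654 and 10421 to 12746 FPKM. Mesenchymal, smooth muscle or fibroblast markers (8 genes) did not rise, at 130 to 209, 64.6 to 97.5 and 48.7 to 70.1 FPKM. The part of these cells in the steps was not tested.

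With doxycycline, Ifitm1 rose from HE1 to HE2 by 3.47 ± 0.45 on the log2 scale (SE, limma's adjusted p = 0.000828) and Ifitm2 by 1.01 ± 0.20 (adjusted p = 0.00947), where 8.59% of the tested genes were called. Haematopoietic markers were at 68.2 to 106 and 275 to 403 FPKM in these groups, and myeloid markers at 13.0 to 20.6 and 68.9 to 79.8 FPKM. Erythroid markers were at 113 to 143 and 1485 to 2164 FPKM. From PlusDox HE2 to PlusDox HP none of the 8 passed, where 16.9% of the tested genes were called, and 1 had an unadjusted p below 0.05 (Ifitm3, −0.64 ± 0.25, adjusted p = 0.102), as 29.1% of the tested genes did. The steps share libraries with each other and with the doxycycline comparisons: a low NoDox HE2 library, for instance, enters the first rise of Ifitm1, its second rise and its doxycycline effect. The scaling also moved the background of the HE1 to HE2 steps, whose median over all tested genes was 0.16 (NoDox) and 0.17 (PlusDox), and −0.02 and −0.01 with equal sums. Against either median the called rises of Ifitm1 and Ifitm2 lay above it.

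Of the 6 step calls the falls of Ifitm3 and Bst2 were lost with equal sums and with quantile normalization, while the 3 rises of Ifitm1 and that of Ifitm2 were called with both. With no filter on low values all 4 NoDox calls were lost, and in the libraries low in Lars2 all 6. In the NoDox step from HE2 to HP, Ifitm1 was not called without NoDox HE2 replicate 1 (1.19), NoDox HP replicate 1 (1.54) or NoDox HP replicate 2 (1.65). Ifitm3 was not called there without NoDox HE2 replicate 2 (−0.63) or NoDox HP replicate 1 (−0.79). Bst2 was called in 9 of 19 alternatives and had −0.62 without NoDox HE2 replicate 2. The first rise of Ifitm1 was not called without NoDox HE1 replicate 2 (2.13), and the rise of Ifitm2 with doxycycline was not called without PlusDox HE1 replicate 2 (0.86) or PlusDox HE2 replicate 1 (0.88).

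**Figure D3:**
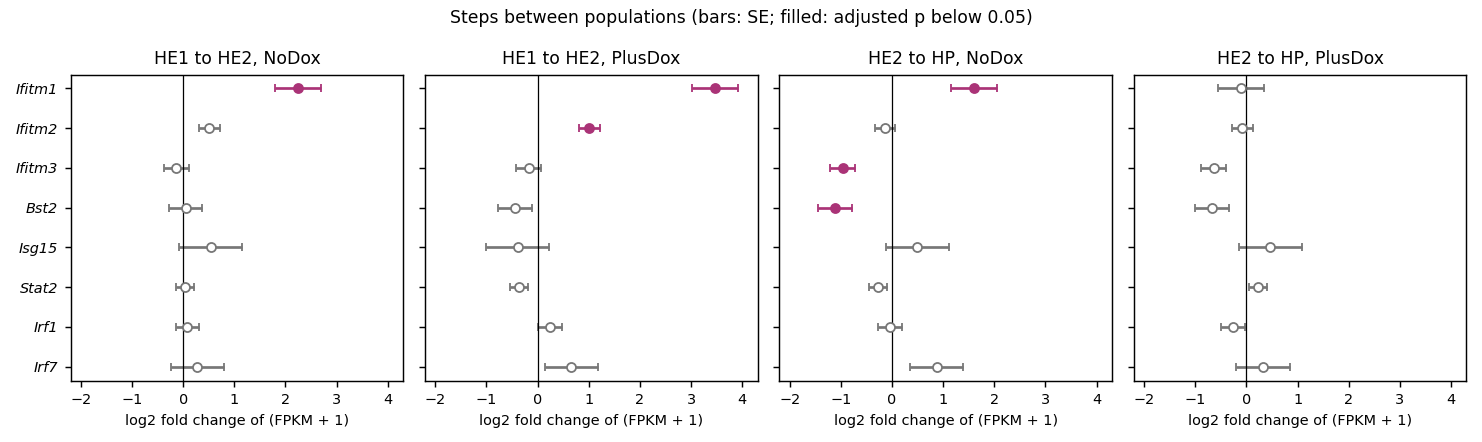
Log2 fold change of FPKM + 1 for the 8 genes between populations, for HE1 to HE2 and HE2 to HP without and with doxycycline, with bars for the standard error and filled points for an adjusted p below 0.05. Ifitm1 is filled in 3 of the 4 panels, Ifitm2 in 1, and Ifitm3 and Bst2 are filled to the left of 0 in the NoDox step from HE2 to HP.

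The spread of Isg15, Irf7 and Bst2 followed the replicate number in the labels, a pattern noticed after the values were seen. All 3 were higher in the library numbered 2 in 6 of 6 groups, which held for 2.79% of the tested genes. The ratio of replicate 2 to replicate 1 ran from 1.75 to 3.7 for Isg15, from 1.57 to 4.24 for Irf7 and from 1.01 to 2.03 for Bst2. A limma fit with the number as a term gave a log2 difference (2 minus 1) of 1.15 ± 0.11 for Isg15 (SE, adjusted p = 0.000594), 0.94 ± 0.12 for Irf7 (adjusted p = 0.00181) and 0.44 ± 0.14 for Bst2 (adjusted p = 0.0591). In that fit 1.93% of the tested genes were higher and 8.64% lower in the libraries numbered 2. With the Lars2 class as a further term the differences were 1.31, 1.12 and 0.66, and Bst2 passed too (adjusted p = 0.0121). Ifitm1 went the other way in 5 of 6 groups (−0.39 ± 0.23, adjusted p = 0.251). The labels do not say what the number stands for.

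Other genes of the interferon system showed the same split by number. Of 100 tested genes in 9 lists, 39 were higher and 0 lower in the libraries numbered 2. They included 19 of 34 effectors of the type I response, such as Ifit1 (1.31 ± 0.13 on the log2 scale, SE) and Rsad2 (1.10 ± 0.12), which encode antiviral proteins, and 9 of 11 GTPases and chemokines of the interferon gamma response. Irf9 (0.44 ± 0.11), a partner of STAT2, and Usp18 (1.14 ± 0.17), which removes ISG15 from proteins, were also higher. Ifit1, for example, was at 1.22 and 5.92 FPKM in NoDox HE2 and at 3.38 and 11.3 FPKM in PlusDox HE2. With the Lars2 class as a term 43 of the 100 passed, where 2.18% of the tested genes were higher.

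With doxycycline in HE2, 14 of the same 100 genes were higher and 0 lower, beside 3.82% and 2.24% of the tested genes, and 1 of the 14 (7.14%) was among the 39 (2.56% of them), Oas1a. The lists were chosen with earlier results of these data known, so these counts describe the listed genes and do not test the interferon system. The spread between replicates is the error of the doxycycline test, so a gene that splits by number has less chance to pass it. With the replicate number as a block 44 of the 100 were higher in HE2, and 20 of the 44 (45.5%) were among the 39 (51.3% of them), so the overlap depended on the fit. The median log2 fold change of the 100 was 0.56 in HE2, 0.18 in HE1 and 0.27 in HP, beside −0.05, −0.07 and −0.00 for all tested genes. In HE1 0 of the 100 passed limma's test, where 1.37% of the tested genes did, and 10 had an unadjusted p below 0.05, near the 9.59% of the tested genes. In HP 2 passed, among them Sp110, where 0.834% of the tested genes did, and 12 had an unadjusted p below 0.05, beside 9.39%. The count of 14 in HE2 was 2 without NoDox HE2 replicate 1, 8 and 5 without PlusDox HE2 replicates 1 and 2, 4 with no filter and 0 in the libraries low in Lars2. None of the differences between populations was called for these genes, with 7 (HE2 minus HE1), 6 (HP minus HE2) and 2 (HP minus HE1) at an unadjusted p below 0.05, beside 6.7%, 6.57% and 6.53% of the tested genes.

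By role, the ligands came first. None of 20 interferon genes reached the level for testing, and 13 were listed at 0 in all 12 libraries. Ifnb1, interferon beta, was the highest, at 0.0631 and 0.459 FPKM in NoDox HP and 0.21 and 0.375 FPKM in PlusDox HP. Of 10 tested receptor and JAK-STAT genes none passed limma's test with doxycycline, and 1, 3 and 1 had an unadjusted p below 0.05 in HE1, HE2 and HP, near the shares of 9.59%, 22.3% and 9.39% over the tested genes. Ifnar1, a subunit of the type I receptor, fell from PlusDox HE2 to PlusDox HP (−1.18 ± 0.30, limma's adjusted p = 0.0185), and Jak1 fell from NoDox HE2 to NoDox HP (−0.80 ± 0.23, adjusted p = 0.0338).

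Of 5 genes of ISG15 conjugation 2 rose in HE2, where 3.82% of all tested genes were called higher. Ube2l6, the conjugating enzyme, was at 5.94 and 8.26 FPKM in NoDox HE2 and at 24.6 and 29.95 FPKM in PlusDox HE2 (1.81 ± 0.24, limma's adjusted p = 0.00146). Uba7, the activating enzyme, was at 8.46 and 9.88 FPKM and at 24.3 and 20.3 FPKM (1.19 ± 0.21, adjusted p = 0.00636). Both also rose from NoDox HE2 to NoDox HP, by 1.38 ± 0.24 and 1.64 ± 0.21. The ligase genes Herc6 and Trim25 did not pass in HE2, and Trim25 was at 39.4 and 55.9 FPKM in NoDox HE2 and at 30.2 and 24.9 FPKM in PlusDox HE2 (−0.75 ± 0.31, adjusted p = 0.171). Of 5 feedback inhibitors 1 rose in HE2 (3.82% of all tested genes), Socs3, from 12.2 to 27.7 FPKM (1.10 ± 0.25, adjusted p = 0.0246).

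Of 34 type I effectors 5 rose in HE2, where 3.82% of all tested genes were called higher. Sp100, which encodes a nuclear body protein, was at 0.285 and 1.62 FPKM in NoDox HE2 and at 6.46 and 7.30 FPKM in PlusDox HE2 (2.1 ± 0.30, limma's adjusted p = 0.0024). Its relative Sp110 rose in HE2 (1.3 ± 0.23, adjusted p = 0.00666), and so did the Oas1a (1.63 ± 0.40, adjusted p = 0.0338) and Oas1g (1.28 ± 0.28, adjusted p = 0.0207) genes of the oligoadenylate synthetases, near-identical copies whose split is uncertain. Of 14 genes of MHC class I presentation 4 rose in HE2 (3.82% of all tested genes). Tapbp, which encodes tapasin, went from 12.5 to 30.5 FPKM (1.24 ± 0.24, adjusted p = 0.0125) and H2-K1 from 17.8 to 38.7 FPKM (1.09 ± 0.22, adjusted p = 0.016), with H2-D1 (1.39 ± 0.33, adjusted p = 0.0313) and the immunoproteasome gene Psmb9 (1.04 ± 0.28, adjusted p = 0.0486) beside them. The class I heavy chain genes resemble each other, so reads may be split between them.

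Of 15 nucleic acid sensors and adaptors 1 rose in HE2, where 3.82% of all tested genes were called higher. This was Tmem173, which encodes STING, from 3.99 to 11.2 FPKM (1.29 ± 0.25, limma's adjusted p = 0.0123). It fell again from PlusDox HE2 to PlusDox HP (−1.20 ± 0.25, adjusted p = 0.0062), as did Sp100 (−1.46 ± 0.30, adjusted p = 0.00544) and H2-K1 (−0.97 ± 0.22, adjusted p = 0.0102). Of 11 GTPases and chemokines 0 passed with doxycycline, with a median of 0.73 in HE2 and 2 at an unadjusted p below 0.05 there (22.3% of the tested genes), while Gbp4 fell from NoDox HE1 to NoDox HE2 (−1.57 ± 0.37, adjusted p = 0.0219). Among the other IRF genes Irf8, a myeloid factor, rose from PlusDox HE2 to PlusDox HP (1.09 ± 0.23, adjusted p = 0.00587), from 0.235 and 0.323 to 1.66 and 1.79 FPKM. It was also called higher in the step from NoDox HE2 (0.122 and 0.228 FPKM) to NoDox HP (0.836 and 2.01 FPKM), so its levels were low throughout. Of the other Ifitm genes 2 were tested and 0 passed with doxycycline, also at an unadjusted p below 0.05, and Ifitm6, next to Ifitm3, rose from 0 in both NoDox HE2 libraries to 1.36 and 1.52 FPKM in NoDox HP (adjusted p = 0.000771).

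**Figure D4:**
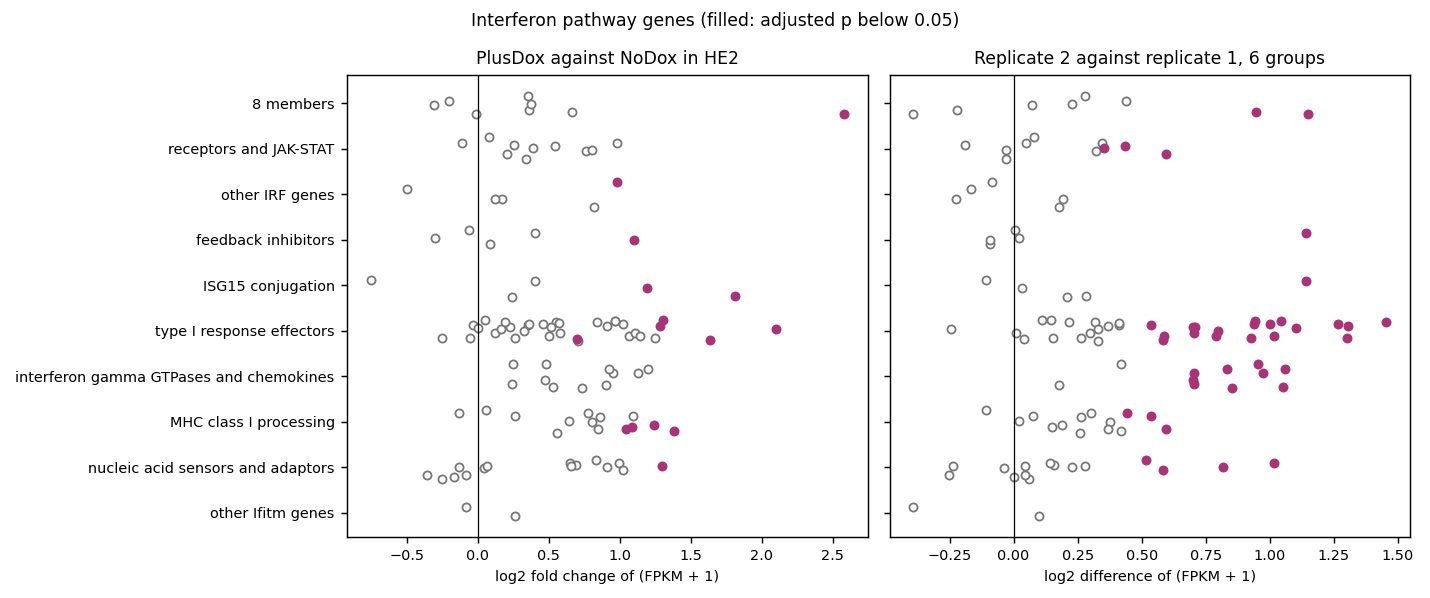
Each point is a gene, by list (rows, with vertical scatter for visibility only). On the left is the log2 fold change of FPKM + 1 with doxycycline in HE2, and on the right the log2 difference between replicates 2 and 1 over the 6 groups, filled where the adjusted p is below 0.05. On the left 14 list genes and Ifitm1 are filled, and on the right 39 list genes with Isg15 and Irf7, 9 of them in the row of gamma GTPases and chemokines.

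Likeness of pattern over the 12 libraries divided the 8 genes in the same way, as a description. The points share their libraries, groups and depth. Among 9440 genes the closest to Ifitm1 by Pearson's r of log2(FPKM + 1) was Coro1a, a leukocyte actin-binding protein gene (0.979), followed by Ptpn6 and Cmas (0.977 each). Coro1a was at 0.649 and 0.894 FPKM in NoDox HE1 and at 55.1 and 45.7 FPKM in PlusDox HE2. Ifitm3 was closest to Sgce (0.969), Fosl2 and Msn (0.966 each), and Bst2 to Slit2 (0.967), Fzd1 (0.952) and Fnbp1l (0.945). Ifitm2 was closest to Adrbk1 (0.976), Pnpla7 (0.968) and Akr1e1 (0.962).

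For Isg15 and Irf7 most of the closest genes belonged to the lists that split by replicate number. Isg15 was closest to Eif2ak2 (0.922), Irgm1 (0.917) and Rnd3 (0.892), and for Irf7 the closest included Irgm2 (0.971) and Usp18 (0.965). Irf1 was closest to Xrcc4 (0.941), Dtx3l (0.938) and Leprotl1 (0.922), and Stat2 to Adam9 (0.873), Yipf3 (0.87) and Tmed10 (0.862), the lowest likeness of the 8. Within the 8, r was 0.885 between Bst2 and Ifitm3, 0.856 between Irf7 and Isg15, 0.851 between Ifitm1 and Ifitm2, and −0.324 between Ifitm1 and Ifitm3.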

How the data were processed

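Per the labels' protocols, libraries were stranded total RNA, sequenced paired-end in one pool. The submitters' processing notes name Trimmomatic 0.32, HISAT2 2.1.0, StringTie 1.3.3 and build mm10; no annotation or strand setting is stated. The deposited tables held 1 value per gene name with no header, read as FPKM made by the authors (an inference from StringTie and from unequal sums). Repeated names were summed. Relative depth came from the steps of FPKM values below 0.05.

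Genes with FPKM of at least 1 in 2 or more of 12 libraries (13316) were fitted as log2(FPKM + 1), so folds of low genes are understated. limma 3.58.1 (R 4.3.3; 6 group means, intensity trend) had 6 residual and 5.83 prior degrees of freedom; p-values are two-sided, Benjamini-Hochberg adjusted, and rest on the spread of 2 biological replicates pooled over groups. The fit was run on simulated data with independent noise in each library. Those data held no Lars2 classes and no split by replicate number, so they do not show how the fit handles either. Python 3.11.15, numpy 2.4.6, pandas 2.3.3 and matplotlib 3.10.9 did the rest. Loci and promoters came from RefSeq, gene overlaps and 50-base words from GENCODE. All 8 members were named, with up to 4 genes per list called with doxycycline, up to 2 in a step and the 3 most like genes; genes named for their split by replicate number were chosen after their values were seen. Values of some listed genes are not reported here, though counts over the lists include them. The members and lists were chosen with earlier results of these data known. Alternatives were a pseudocount of 0.1, no filter, equal sums, quantile normalization, a Lars2 class term (1000 FPKM), low-Lars2 libraries only, a replicate block and leaving out each library.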

Additional observations from a re-analysis of the deposited data

How the results depend on the processing

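Each comparison was refitted under 19 alternatives. The number of members called with doxycycline in HE2, 1 as reported, was 2 with equal sums, quantile normalization, the Lars2 class term and the replicate block, and 0 with no filter and in the libraries low in Lars2. In the NoDox step from HE1 to HE2, 1 as reported, it was 2 with quantile normalization and the block, and 0 with no filter and in the low-Lars2 libraries. In the NoDox step from HE2 to HP, 3 as reported, it was 1 with equal sums and quantile normalization, and 0 with no filter and in the low-Lars2 libraries. In the PlusDox step from HE1 to HE2, 2 as reported, it was 0 in the low-Lars2 libraries. Leaving out each library gave 0 to 1 in the HE1 and HE2 doxycycline comparisons, 0 to 1 and 0 to 3 in the NoDox steps and 1 to 2 in the PlusDox step from HE1 to HE2. Where an arm kept 1 library, that library was assumed to vary like the other groups. The cause was not tested.

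Ifitm1, Ifitm3 and Irf7 kept the direction of the doxycycline effect in HE2 in all alternatives, as did Ifitm2, Irf1 and Stat2. In HE1 the low-Lars2 libraries reversed Bst2 (−0.21), Isg15 (−0.28), Stat2 (−0.0103), Irf1 (−0.0902) and Irf7 (−0.87), none of them called. In HE2 Isg15 turned to 0.00817 with equal sums and 0.0243 with quantile normalization. Leaving out single libraries reversed more effects that were not called. These spanned, in HE1, −0.30 to 0.0157 for Ifitm2, −0.19 to 0.76 for Bst2, −0.036 to 0.20 for Stat2, −0.088 to 0.52 for Irf1 and −0.45 to 1.01 for Irf7. In HE2 they spanned −0.70 to 0.29 for Bst2 and −0.67 to 0.65 for Isg15, and in HP −0.57 to 0.51 for Isg15, −0.01 to 0.30 for Irf1 and −0.28 to 0.50 for Irf7.

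With the replicate block, an alternative fit with the replicate number as a term, 1 member was called with doxycycline in HE1 (Isg15, 0.91, adjusted p = 0.0241), 2 in HE2 (Ifitm1 and Irf7, the latter 0.67, adjusted p = 0.048) and 1 from PlusDox HE2 to PlusDox HP (Ifitm3). Of the 100 list genes 44 were higher in HE2 in place of 14, the 14 among them, and 20 of the 44 (45.5%) were among the 39 that split by number (51.3% of them). The numbers do not pair the samples by the labels, and same-numbered deviations correlated at −0.1 to 0.526 between groups. All tested genes called in HE2 went from 807 to 2296 with the block, 450 with no filter, 1416 with equal sums, 1824 with quantile normalization, 1254 with the class term and 7 in the low-Lars2 libraries. In HE1 they went from 182 to 459 with the block, 351 with quantile normalization, 97 with a pseudocount of 0.1 and 0 in the low-Lars2 libraries, and in HP from 111 to 305 with the block, 175 with the class term and 3 in the low-Lars2 libraries. Depth is known only as a ratio between libraries, so no counting interval can be given for Irf7, the lowest member, or for the ligands listed at 0.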
